A study of Mus musculus with 6 samples.

Results

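The 10 genes described here are a set used by serotonin neurons, and some are shared with other cells. Their levels were followed in choroid plexus, the secretory tissue of the brain ventricles, where such neurons do not reside. The genes were chosen by gene symbol from the platform annotation. Of the 10 genes, 9 had a probe set with that single symbol, out of 18193 genes so named, and these 9 had 13 probe sets. Fev, the ETS transcription factor that drives serotonin neuron identity, had no probe set under its symbol and has no value here. The choice was made with the levels on these arrays known, so the levels below are a description and carry no test.

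Serotonin is made from tryptophan in a pair of steps, by tryptophan hydroxylase and then by aromatic amino acid decarboxylase, and the first step needs the cofactor tetrahydrobiopterin. The product is loaded into vesicles by the vesicular monoamine transporter, recovered from outside the cell by the serotonin transporter, and broken down by monoamine oxidase. In the brain the neurons that do this lie in the raphe nuclei of the brainstem. Choroid plexus epithelium is known as a target of serotonin, through the receptor encoded by Htr2c.

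The samples were 3 RAG-/- and 3 WT preparations of choroid plexus epithelium taken from whole brains of B10.PL mice, each on 1 single-colour array. RAG-/- mice lack mature T and B cells, and the labels do not say which recombination gene was disrupted, nor the age, the sex or any pooling of the animals. Codes in the titles join 1 sample of each genotype into each of 3 pairs, and in pair 1 the descriptions, which set the groups here, reverse the genotype in the titles. RAG-/- replicate 2, on which most of what follows rests, is RAG-/- by both.

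Every array carried the epithelium. Its 11 measured markers summed to between 94928 and 190184 in deposited intensity on the RAG-/- arrays and between 148187 and 178713 on the WT arrays, with the lowest sum on RAG-/- replicate 2. Correlations between arrays over probe sets ran from 0.905 to 0.965. Rag1 was dim, at 7.19, 116 and 62.1 on RAG-/- replicates 1, 2 and 3, against 74.0, 1.86 and 4.39 on WT replicates 1, 2 and 3. Rag2 was dim too, at 26.7, 16.03 and 46.6 on RAG-/- replicates 1, 2 and 3, against 5.30, 9.35 and 126 on WT replicates 1, 2 and 3. Rag1 was thus lower in the RAG-/- array in pair 1 only, and Rag2 in pair 3 only. Where either probe set lies relative to the disruption is not known, so genotypes are those of the labels.

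The serotonin neuron genes were bright on 1 array. On RAG-/- replicate 2, 8 of the 9 measured genes had their highest log2 value (log2 of intensity plus 16, quantile normalized), where 24.1% of all genes did. A gene is said to stand apart where its brightest array lay at least 2 log2 units, a factor of 4, above the next. By that measure 7 of the 9 stood apart, namely Tph2, Ddc, Gch1, Slc6a4, Slc18a2, Gata3 and Htr1a, all on RAG-/- replicate 2. Among all genes 0.786% stood apart on that array and 0.912% on any array. Gata2 lay between, with a gap of at least 1 and under 2, as did 5.4% of all genes, and Maob was level across arrays. The members nearest to the limit were Htr1a, with a gap of 2.61, and Gata2, with a gap of 1.33.

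**Figure D1:**
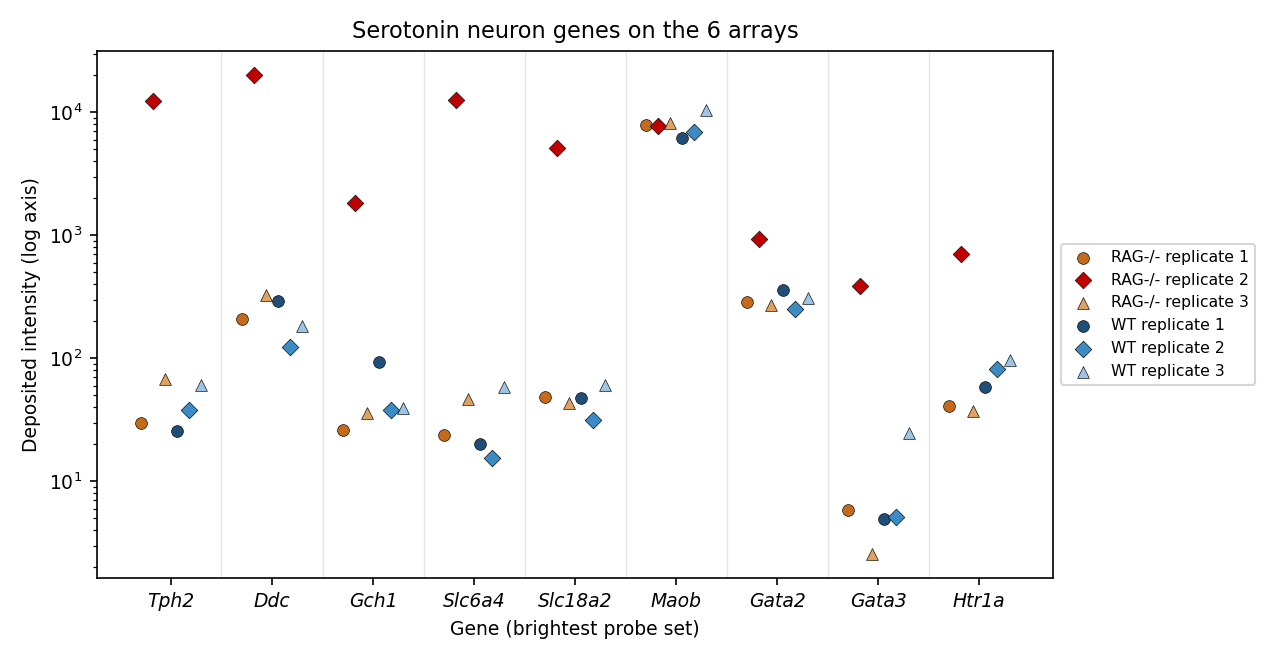
Deposited intensity (log axis) of the 9 measured genes at their brightest probe set, with 1 point per array, RAG-/- arrays to the left of WT arrays. The red diamond, RAG-/- replicate 2, lies far above the other 5 arrays for Tph2 (12480), Ddc (20268), Slc6a4 (12706) and Slc18a2 (5176), and among them for Maob (7764).

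All 3 enzymes of synthesis stood apart. Tph2, the neuronal tryptophan hydroxylase and rate-limiting enzyme, had intensities of 29.7, 12480 and 67.9 on RAG-/- replicates 1, 2 and 3, against 25.9, 38.0 and 61.0 on WT replicates 1, 2 and 3. The other 5 arrays lay together, at percentiles of 25.5 to 45.1 of all probe sets on their arrays, and RAG-/- replicate 2 lay at the 99.3 percentile. The ratio of that array to the next brightest was 184, and since the lower value is dim, it depends on how background was removed upstream.

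Ddc, the decarboxylase that completes the synthesis of serotonin and of dopamine, had 210, 20268 and 327 on RAG-/- replicates 1, 2 and 3, against 291, 123 and 182 on WT replicates 1, 2 and 3. On the other 5 arrays it lay at percentiles of 55.7 to 72.0 of all probe sets, and its ratio of brightest to next was 61.9. The dimmer probe set of Ddc had 130 on RAG-/- replicate 2 and between 2.49 and 33.2 on the other arrays, a gap of 1.38.

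Gch1, GTP cyclohydrolase, opens the synthesis of tetrahydrobiopterin. Its brighter probe set had 25.9, 1822 and 36.0 on RAG-/- replicates 1, 2 and 3, against 93.8, 37.8 and 39.6 on WT replicates 1, 2 and 3. Its other probe set gave 772 on RAG-/- replicate 2 and at most 75.2 elsewhere, so both stood apart, with gaps of 4.002 and 2.98. On both, the next brightest array was WT replicate 1.

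The transporters showed the same contrast. Slc6a4, the serotonin transporter of the plasma membrane, had 24.0, 12706 and 46.6 on RAG-/- replicates 1, 2 and 3, against 20.0, 15.6 and 58.1 on WT replicates 1, 2 and 3. Slc18a2, the vesicular monoamine transporter shared by all monoamine neurons, had 48.5, 5176 and 43.6 on RAG-/- replicates 1, 2 and 3, against 47.8, 31.4 and 60.6 on WT replicates 1, 2 and 3. Their ratios of brightest to next were 219 and 85.4. On the other 5 arrays Slc6a4 reached at most the 39.9 percentile and Slc18a2 the 40.8 percentile.

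The promoters of the hydroxylase and of both transporters are given because these genes shared the array pattern most closely. They run from 250 bases before to 50 after the annotated start (RefSeq, GRCm38.p6). Capitals mark GATAA on either strand, a form of the letters read by GATA factors. Other forms, such as GATAG, were neither marked nor counted.
Tph2, chr10:115184973-115185272, minus strand: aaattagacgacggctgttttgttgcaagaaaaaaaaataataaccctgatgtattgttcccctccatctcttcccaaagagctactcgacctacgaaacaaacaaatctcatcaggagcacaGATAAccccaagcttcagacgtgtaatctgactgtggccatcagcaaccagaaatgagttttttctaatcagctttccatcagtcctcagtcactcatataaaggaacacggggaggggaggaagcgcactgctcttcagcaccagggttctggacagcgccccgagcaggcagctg
Slc6a4, chr11:76998347-76998646, plus strand: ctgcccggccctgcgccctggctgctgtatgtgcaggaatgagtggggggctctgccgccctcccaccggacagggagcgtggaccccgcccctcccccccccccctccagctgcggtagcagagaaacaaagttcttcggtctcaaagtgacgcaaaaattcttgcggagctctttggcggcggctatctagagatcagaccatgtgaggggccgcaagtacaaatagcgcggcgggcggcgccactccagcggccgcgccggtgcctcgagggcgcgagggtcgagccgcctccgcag
Slc18a2, chr19:59260628-59260927, plus strand: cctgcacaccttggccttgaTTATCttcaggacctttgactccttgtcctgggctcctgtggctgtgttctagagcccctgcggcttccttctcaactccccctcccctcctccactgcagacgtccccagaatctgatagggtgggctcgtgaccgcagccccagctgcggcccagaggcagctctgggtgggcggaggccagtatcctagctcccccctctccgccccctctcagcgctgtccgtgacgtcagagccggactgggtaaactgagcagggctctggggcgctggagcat

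The window of Tph2 held GATAA and that of Slc18a2 its complement TTATC, and that of Slc6a4 held neither. Since other forms were not searched, a window without GATAA may still hold letters read by GATA factors. Promoters were on file for 9 of the 10 genes, 11 windows in all, and GATAA in either direction was found in 3 of them (27.3%), those of Tph2, Slc18a2 and Fev. Of all 32851 promoters of this length, 25.4% held it, so the share among these genes was near the background. CGGAAG, a core read by ETS factors such as the Fev protein, was in 0 of the 11 windows and in 16.9% of all promoters, counting its complement CTTCCG too.

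Breakdown was the exception. Maob, a monoamine oxidase of serotonin neurons and of astrocytes, had 7976, 7764 and 8274 on RAG-/- replicates 1, 2 and 3, against 6176, 6882 and 10495 on WT replicates 1, 2 and 3. It lay between the 97.4 and 98.6 percentiles on every array and the groups overlapped. RAG-/- replicate 2 was in the middle of the range in deposited intensity and second highest in normalized log2 value, at 13.10, below 13.25 on WT replicate 3. Maoa, the other monoamine oxidase, was also present throughout, at 862, 1103 and 692 on RAG-/- replicates 1, 2 and 3, against 909, 710 and 807 on WT replicates 1, 2 and 3.

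The transcription factors split. Gata3, which serotonin neurons share with T cells and other tissues, had 5.85, 385 and 2.57 on RAG-/- replicates 1, 2 and 3, against 4.96, 5.17 and 24.5 on WT replicates 1, 2 and 3. It was at or below the 23.2 percentile on the other 5 arrays, and it stood apart by 3.22 log2 units. Gata2, which acts in neural and in blood and endothelial precursors, had 288, 936 and 269 on RAG-/- replicates 1, 2 and 3, against 360, 254 and 309 on WT replicates 1, 2 and 3.

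Gata2 was therefore measured at similar levels on 5 arrays, between the 66.6 and 71.5 percentiles, and was 2.60 times the next array on RAG-/- replicate 2. Its dimmer probe set gave a gap of 1.40, close to the 1.33 of the brighter one.

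Htr1a encodes the autoreceptor through which serotonin neurons restrain their own firing, and it is also made by forebrain neurons. It had 41.1, 702 and 37.4 on RAG-/- replicates 1, 2 and 3, against 58.3, 81.7 and 97.6 on WT replicates 1, 2 and 3. The gap was 2.61. Its dimmer probe set had 78.2 on RAG-/- replicate 2 and at most 40.4 elsewhere, a gap of 0.65, so the probe sets of this gene disagree on whether it stands apart.

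Ranked by that gap among the 4382 genes brightest on RAG-/- replicate 2, Slc6a4, Tph2, Slc18a2 and Ddc held ranks 1, 2, 3 and 4. Gch1 was at rank 8, Gata3 at 14, Htr1a at 43 and Gata2 at 422. The median gap was 4.002 over the 9 genes and 0.20 over all genes.

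**Figure D2:**
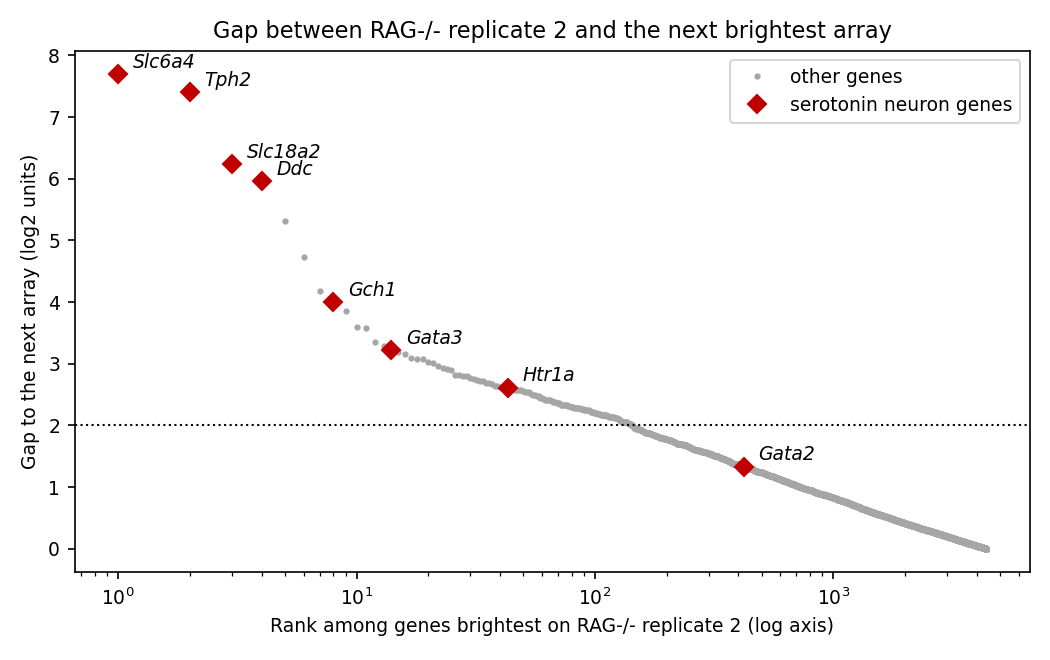
Gap in log2 units between RAG-/- replicate 2 and the next brightest array (vertical axis) against rank (horizontal log axis) for the 4382 genes brightest on that array, with serotonin neuron genes as red diamonds and a dotted line at 2. The first 4 ranks are Slc6a4, Tph2, Slc18a2 and Ddc, with gaps between 7.69 and 5.96.

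The 10 other genes with the largest gap on that array were Irs4, AW551984, Resp18, A930009L07Rik, Nrsn2, Scg2, Gchfr, Dgkk, Cited1 and Slc7a3. Their gaps ran from 5.32 for Irs4, an insulin receptor substrate, to 3.16 for Slc7a3, a transporter of basic amino acids. Irs4 had 35.0, 5020 and 76.6 on RAG-/- replicates 1, 2 and 3, against 79.9, 37.2 and 122 on WT replicates 1, 2 and 3. Pearson's r with the mean log2 value of Tph2 and Slc6a4 over the 6 arrays was between 0.869 and 0.987 for these 10, a description only, since all were picked for being brightest on the same array. Gchfr, which encodes the protein that regulates GTP cyclohydrolase, thus appeared beside Gch1.

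Genes that act next to the members were read from further lists. Of 10 measured genes of serotonin and tetrahydrobiopterin chemistry, 2 stood apart on RAG-/- replicate 2. Gchfr had 38.5, 1548 and 65.7 on RAG-/- replicates 1, 2 and 3, against 134, 68.2 and 89.6 on WT replicates 1, 2 and 3. Pcbd1, which recycles the cofactor, had 402, 2547 and 219 on RAG-/- replicates 1, 2 and 3, against 405, 212 and 314 on WT replicates 1, 2 and 3.

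The other 8 genes of that list did not stand apart on any array. Qdpr, another recycling enzyme, was bright throughout, at 12132 to 21551 on RAG-/- arrays and 12646 to 20334 on WT arrays. Slc29a4, a low-affinity monoamine carrier, was at 7529 on RAG-/- replicate 2, its lowest value, and at 11633 or more on the other arrays. Tph1, the hydroxylase of pineal gland, gut and mast cells, reached at most 52.0 on RAG-/- arrays and 30.0 on WT arrays.

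Of 14 other measured genes linked to the raphe and to serotonin neurons, 9 were brightest on RAG-/- replicate 2 and 1 stood apart there. That gene was Htr5b, a receptor known in rodent raphe and habenula, with 35.7, 367 and 12.3 on RAG-/- replicates 1, 2 and 3, against 17.5, 53.3 and 7.08 on WT replicates 1, 2 and 3. Lmx1b, a transcription factor needed to form serotonin neurons, had 50.5, 315 and 69.4 on RAG-/- replicates 1, 2 and 3, against 46.5, 94.1 and 93.2 on WT replicates 1, 2 and 3, a gap of 1.51. Nkx2-2 and En1 were brightest there too, though dim, at 142 and 77.4. En2, a gene of the midbrain and anterior hindbrain, was brightest on WT replicate 2, at 1138, with 731 on RAG-/- replicate 2. Trh stood apart on RAG-/- replicate 1, at 115.

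Receptors for serotonin gave 7 of 13 measured genes brightest on RAG-/- replicate 2, with Htr1a and Htr5b standing apart. Htr1b, an autoreceptor of nerve endings, had 79.6, 850 and 88.6 on RAG-/- replicates 1, 2 and 3, against 334, 303 and 117 on WT replicates 1, 2 and 3. Htr1b, Htr5a and Htr7 lay between, with gaps of 1.30, 1.37 and 1.39. Htr2c, the receptor of choroid plexus epithelium, went the other way, with 15363, 10037 and 20193 on RAG-/- replicates 1, 2 and 3, against 16383, 16274 and 18152 on WT replicates 1, 2 and 3, so that RAG-/- replicate 2 was the lowest array.

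Genes of other monoamine, cholinergic and hypothalamic neurons were read in the same way. On RAG-/- replicate 2, 0 of 6 dopamine, 0 of 4 noradrenaline, 0 of 4 cholinergic and 0 of 6 hypothalamic neuron genes stood apart. Since 0.786% of all genes did, such counts are near the background. Their medians against the other 5 arrays were -0.21, -0.53, -0.39 and -0.38 log2 units. Many of these genes were dim, and the cholinergic genes lay at or below 110 on every array. These medians may therefore be those of background, and they cannot show whether such neurons were present. Th, which makes the precursor of dopamine and noradrenaline, had 154 on RAG-/- replicate 2. It had 818 on RAG-/- replicate 1 and between 91.2 and 207 on the remaining arrays. Slc6a2, the noradrenaline transporter, was at 141 on RAG-/- replicate 2 and between 73.8 and 125 on the other arrays. The 10 measured genes of hindbrain position, 9 Hox genes and Egr2, were brightest on other arrays in every case. Among all genes 24.1% were brightest on RAG-/- replicate 2. Apart from Hoxa5 and Egr2, these genes were dim, at or below 180 on every array. Their order across arrays may therefore be that of background.

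Genes of a list called pan-neuronal were also highest on that array, but less far above the rest in log2 units. The list also holds genes of GABA and of glutamate neurons, such as Gad2, so not all are common to neurons. On log2 values all 13 pan-neuronal genes were brightest on RAG-/- replicate 2, and 3 of them stood apart, which were Nefl, Tubb3 and Gad2, named after their values were seen. Gad2, which makes the transmitter GABA, had 546, 2427 and 278 on RAG-/- replicates 1, 2 and 3, against 474, 552 and 342 on WT replicates 1, 2 and 3. The summed intensity of the 13 genes was 80744 on RAG-/- replicate 2, against 27526 and 10046 on RAG-/- replicates 1 and 3 and 16641 to 42590 on the WT arrays. The median excess of these 13 on RAG-/- replicate 2 over the median of the other 5 arrays was 2.09 log2 units, and that of the 9 serotonin neuron genes was 5.10. The same measure was -0.032 over all genes. Such an excess depends on the level on the other arrays, where Tph2 and Slc6a4 were dim and Snap25 was bright. In summed intensity the 9 serotonin neuron genes had 62238 on RAG-/- replicate 2. They had 8650 and 9104 on RAG-/- replicates 1 and 3, and 7079 to 11327 on the WT arrays. Neuronal RNA was measured on every array. Among the other 5 arrays the sum of the 13 genes was highest on WT replicate 2, at 42590, where Tph2 was at 38.0. Snap25, a synaptic gene, had a deposited intensity of 14766 on RAG-/- replicate 2 and 15032 on WT replicate 2. Every other gene of this list was lower on WT replicate 2, such as Syt1, at 5467 against 14044 on RAG-/- replicate 2. The cerebellar genes were brightest on WT replicate 2. Whether the arrays held neurons of the same kinds was not tested.

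Some members are also used by cells other than serotonin neurons. Mast cells and platelets store monoamines through Slc18a2. Of 9 mast cell genes and 5 platelet genes 0 stood apart on RAG-/- replicate 2, near the background of 0.786%, and their medians against the other arrays were -0.53 and -0.64. T cells use Gata3. Of 7 T cell genes 0 stood apart there, also near the background, with a median of 0.085. Summed intensities were 369 to 433 on RAG-/- arrays and 353 to 400 on WT arrays. Cd8a, at 194 to 308 over the arrays, made up most of each sum. Since RAG-/- mice lack mature T cells, these genes cannot show where Gata3 on a RAG-/- array came from. Of 10 endothelial genes, Tal1 alone stood apart there, singled out after its values were seen, with 62.7, 838 and 66.2 on RAG-/- replicates 1, 2 and 3, against 115, 32.7 and 85.4 on WT replicates 1, 2 and 3. Tal1 is a partner of GATA factors in blood and in brainstem neurons, and the other 9 endothelial genes were brightest on other arrays.

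The epithelium moved the opposite way on RAG-/- replicate 2. All 11 of its measured markers were below the median of the other arrays, with a median of -0.86 log2 units. Of 9 astrocyte genes 6 were brightest there, with a median of 0.89. All 7 measured oligodendrocyte genes were above the other arrays' median, by a median of 1.35, and 3 of them were brightest there. Their summed intensity was highest on RAG-/- replicate 3, at 71997, against 53320 on RAG-/- replicate 2. In such bulk RNA, fewer cells of a type and less RNA per cell cannot be told apart. Whether brainstem tissue was collected with this preparation was not tested.

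**Figure D3:**
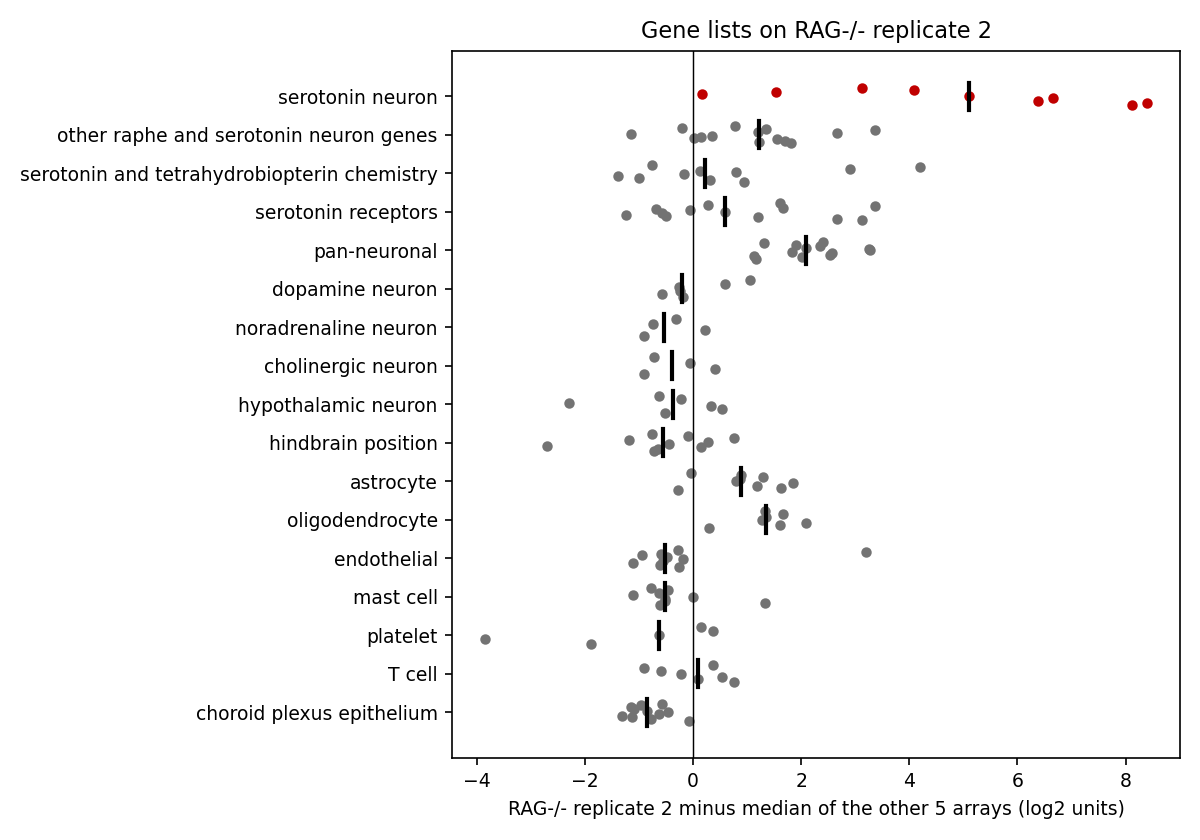
Log2 value on RAG-/- replicate 2 minus the median of the other 5 arrays, with 1 point per gene in each list and a black bar at the list's median. The serotonin neuron genes (red) reach 8.39 with a median of 5.10, against 2.09 for pan-neuronal genes and -0.86 for choroid plexus epithelium. The excess of a gene depends on its level on the other 5 arrays.

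Over the other 5 arrays the log2 values of each gene at its brightest probe set spanned between 0.47 for Gata2 and 1.48 for Ddc. The dimmer probe sets of Gata2 and Gch1 spanned more, 1.54 and 1.87. Among the other 5 arrays Tph2 was highest on both arrays of pair 3, at 67.9 on RAG-/- replicate 3 and 61.0 on WT replicate 3. So was Slc6a4, at 46.6 and 58.1. These values lay at or below the 45.1 percentile, where an intensity cannot be told from background without detection calls.

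The genotypes were compared next, and since RAG-/- replicate 2 guided the choice of these genes, their differences over all arrays are given as values with no test. The limma fit over all probe sets called 0% of 27022 probe sets at an adjusted p of 0.05, and 192 had an unadjusted p under 0.05. Tph2 averaged 8.63 ± 4.51 in RAG-/- and 5.79 ± 0.39 in WT (SD, n = 3 each, log2 values), a difference of 2.85 (SE 1.85). Slc6a4 averaged 8.43 ± 4.70 in RAG-/- and 5.45 ± 0.62 in WT (SD, n = 3 each), a difference of 2.98 (SE 1.93). For both, the SD in RAG-/- exceeded the difference. Maob averaged 12.99 ± 0.10 in RAG-/- and 12.89 ± 0.33 in WT (SD, n = 3 each), a difference of 0.10 (SE 0.22).

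For 0 of the 9 genes did the 3 arrays of one genotype all lie on one side of the other 3. That happened in 2.65% of all genes with RAG-/- above and in 1.93% with RAG-/- below. Of the 9 genes, 8 passed the filter on dim probe sets and Gata3 did not. Without RAG-/- replicate 2 only 4 of the 9 would have passed, namely Ddc, Maob, Gata2 and Htr1a, so Tph2, Slc6a4, Slc18a2 and Gch1 passed through that array.

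Within pairs the difference between the genotypes of Tph2 was 0.22, 8.12 and 0.21 in pairs 1, 2 and 3, and that of Slc6a4 was 0.25, 8.86 and -0.17. For Gch1 it was -1.29, 5.11 and -0.027, and for Htr1a -0.29, 2.84 and -1.03. The excess in RAG-/- was thus a feature of pair 2. Without RAG-/- replicate 2, Tph2 averaged 6.01 in RAG-/- (n = 2) and 5.76 in WT (n = 3), a difference of 0.25 (SE 0.47, limma adjusted p = 0.9999 with no filter on dim probe sets). Slc6a4 differed by 0.27, Slc18a2 by 0.11, Ddc by 0.55 and Maob by 0.045 in that fit. Gch1, Gata2, Gata3 and Htr1a differed by -0.47, -0.045, -0.35 and -0.67, opposite in sign to their differences over all arrays, and 0 of the 9 passed, where 2 of 45037 probe sets did, 0.00444%. With the filter 4 of 27022 probe sets passed, 0.0148%. Tph2, Slc6a4, Slc18a2, Gch1 and Gata3 fell below that filter and had no test. Ddc, Maob, Gata2 and Htr1a were tested and did not pass.

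**Figure D4:**
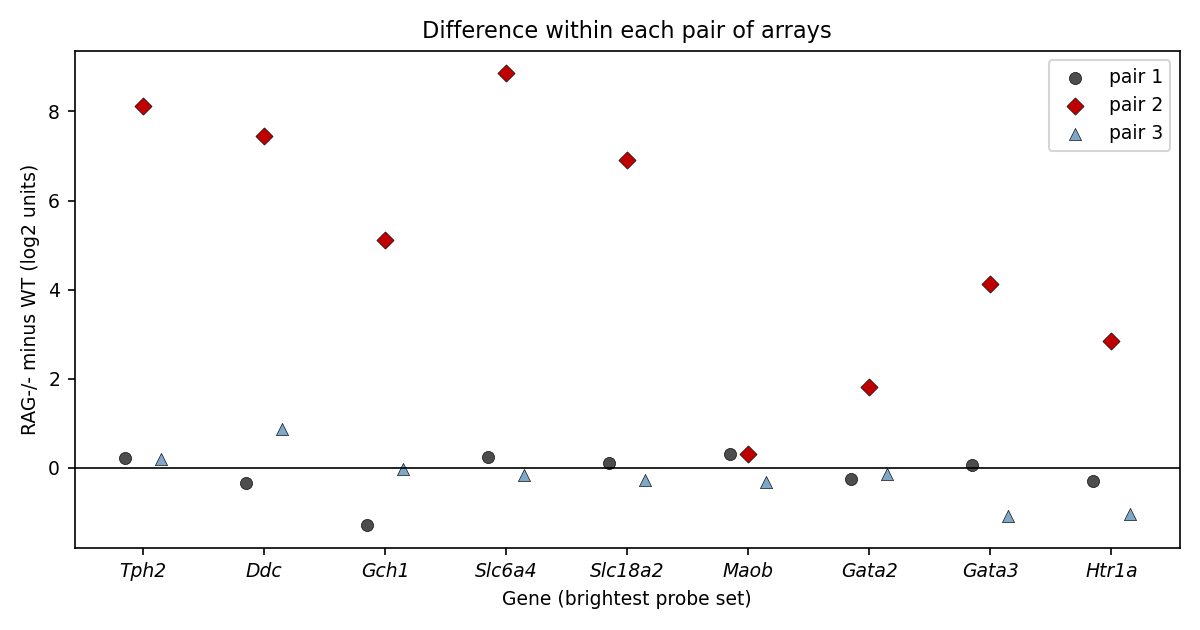
RAG-/- minus WT in log2 units within each of the 3 pairs of arrays for the 9 measured genes. Pair 2 reaches 8.86 for Slc6a4 and 8.12 for Tph2, whereas pairs 1 and 3 lie between -1.29 and 0.87 for every gene.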

How the data were processed

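Expression was measured on 6 single-colour arrays, 3 RAG-/- and 3 WT. The deposited table holds 1 linear intensity per probe set and array; how the authors subtracted background and normalized is not given in the sources used here. Without the lowest and highest 2% of its 45101 probe sets, every array averaged 500, a scaling that equalizes overall brightness and nothing more. No detection calls were used.

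The 64 control probe sets were left out, 16 was added before log2, and arrays were quantile normalized because their 75th percentiles differed by 0.232 on the log2 scale, above a limit of 0.2. Of 45037 probe sets, 34945 had 1 gene symbol, 932 had several and 9160 were unnamed here; 34741 of the first matched the GRCm38.p6 gene table by gene number. Each gene is represented by its brightest probe set on average. Differences were tested with limma 3.58.1 in R 4.3.3 (two-sided, intensity trend, Benjamini-Hochberg over the 27022 probe sets left once the dimmest 40% were removed, threshold 0.05). With 3 arrays against 3, an exact permutation test cannot go below 0.1, and none is reported. Nothing in the labels says that preparations came from separate animals, so p-values measure the spread between samples, which may be technical.

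Shared title codes give 3 pairs. Within pairs, what each array deviated from its group mean correlated at 0.19, 0.27 and 0.41, above a limit of 0.1, so the pairs also entered as blocks in an alternative fit.

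The members and the gene lists were chosen with earlier results of these data known. Named are all members, genes of the lists on serotonin, at most 4 of any other list by highest mean, Rag1 and Rag2, and the 10 other genes with the largest gap on the brightest array of Tph2. Outside this rule, Tal1, Nefl, Tubb3 and Gad2 were named after their values were seen. Likeness was to be measured against Tph2, Slc6a4 and Fev; Fev had no probe set, so Tph2 and Slc6a4 were used. The lists on pineal, pituitary, macrophage, striatal and cerebellar cells are reported among the other observations.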

Additional observations from a re-analysis of the deposited data

How the results depend on the processing

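The count of 7 genes standing apart was 7 with 1 or 64 added before log2, with the values as deposited, with arrays scaled to a common median and with either other choice of probe set. It was 8 with a gap of at least 1 and 6 with a gap of at least 3, and with single arrays left out it ran from 0 (without RAG-/- replicate 2) to 7. The count of probe sets called between RAG-/- and WT was 0 over all arrays, by title, with the replicate block, with the other additions and scalings, with no filter and with array weights. It ran from 0 to 4 with single arrays left out, 4 without RAG-/- replicate 2. Of the serotonin neuron genes, only Ddc, Maob, Gata2 and Htr1a were past the filter in that fit, and they were not called. The replicate block changed no call.

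Of 126 differences of single genes between the genotypes under these alternatives, 8 changed sign. They are given as values with no test, since RAG-/- replicate 2 guided the choice of these genes. By title Maob was at -0.11. With array weights Gch1 was at -0.039 and Htr1a at -0.047. With single arrays left out, the ranges were -0.47 to 2.16 for Gch1, -0.045 to 0.74 for Gata2, -0.35 to 1.81 for Gata3, -0.67 to 1.16 for Htr1a and -0.039 to 0.28 for Maob, lowest without RAG-/- replicate 2, except for Maob without WT replicate 1. The level of dim genes on the other arrays is limited by an unknown background.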

Other observations

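Array-specific brightness was not limited to serotonin neuron genes. RAG-/- replicate 2 had 143 genes standing apart, against 8 and 1 on RAG-/- replicates 1 and 3 and 9, 0 and 5 on WT replicates 1, 2 and 3. On RAG-/- replicate 2, 12 probe sets with no gene name in the annotation also stood apart. Of 7 measured pituitary genes, 3 stood apart on WT replicate 3, among them Prl, the hormone prolactin, at 3261, against 254 on RAG-/- replicate 2 and at most 61.9 on the remaining arrays. All 5 cerebellar genes were brightest on WT replicate 2, with a summed intensity of 42556. The same genes summed to 20958 on RAG-/- replicate 2, the second highest, and all 5 were above the median of the other arrays there, by a median of 1.99 log2 units. Of 6 pineal, 8 macrophage and 4 striatal genes, 0 stood apart on any array.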
